A study of Caenorhabditis elegans with 9 samples.

Results

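The 124 PIWI-interacting RNAs (piRNAs) of Caenorhabditis elegans described here are the well-measured entries that were scarce in animals whose PRG-1 lacks the PAZ domain. They were taken from 15913 entries of piRNAdb, a database of piRNA sequences, of which 5252 had at least 1 sense read in the study. An entry was chosen with at least 40 sense reads in the RNase-dead and wild-type libraries together, a ratio of pooled rates of RNase-dead over wild type under 2, and a pooled rate in PAZ-deletion under 0.25 of that in the other libraries. Pooled rates divide the reads of an entry, added over the libraries of a genotype, by the genome-mapped reads of the same libraries. The read minimum left 281 entries and the RNase-dead limit 217. Of these, 7 were left out by name. They comprised 3 entries that were also below the PAZ-deletion threshold (cel-piR-10036, cel-piR-6101 and cel-piR-2077) and 4 above it (cel-piR-14240, cel-piR-1592, cel-piR-12706 and cel-piR-156). The other 86 lay at or above the threshold and are called the kept entries here. A further 43 entries were below the PAZ-deletion threshold but had been dropped by the RNase-dead limit.

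piRNAs are short RNAs that guide Argonaute proteins of the Piwi clade to their targets in the animal germline. In this worm the Piwi protein that binds them is PRG-1, and most piRNAs are transcribed one by one from small units of their own. An Argonaute holds the 5′ end of its guide in the MID domain and the 3′ end in the PAZ domain, while the PIWI domain carries the nuclease activity with which some Argonautes cut a target. Worms without PRG-1 are known to lack most of their piRNAs.

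Libraries came from whole adult hermaphrodites, collected 24 h past the mid-L4 larval stage, and each genotype was taken from 20 to 30 animals grown at 25 °C. There were 3 libraries of a prg-1 mutant without the PAZ domain, labelled prg-1(∆PAZ-domain) and called PAZ-deletion here, 3 of a mutant labelled prg-1(Rnase-dead), called RNase-dead here, and 3 of wild type. The labels give neither allele names nor strains, and nothing in them says that the libraries of a genotype came from separate cultures. Each library was made from whole animals, so fewer germ cells and less piRNA per germ cell cannot be told apart. Because the PAZ-deletion, RNase-dead and wild-type sense reads chose the members, their sense levels are given below as a description and without a test of their own. The tables hold no prg-1 transcript, so the genotypes were not checked. No sequences or coordinates of the entries were used here, since the tables hold names and counts alone.

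PAZ-deletion libraries had 1022428 to 2115662 genome-mapped reads, RNase-dead libraries 2123922 to 3121968 and wild-type libraries 1561419 to 2921441. A floor of 3 reads stood for 1.42 to 2.93 reads per 1000000 genome-mapped reads (RPM) in PAZ-deletion, for 0.961 to 1.41 RPM in RNase-dead and for 1.03 to 1.92 RPM in wild type. The total of sense piRNA reads was 1676 to 1960 RPM in PAZ-deletion, 5653 to 6663 in RNase-dead and 3285 to 5930 in wild type. Wild-type library 2 had the lowest total of its group, at 61.0% of the mean of the other wild-type libraries.

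The 124 entries together had 509 sense reads in PAZ-deletion, 12218 in RNase-dead and 9266 in wild type. Their summed level was 109.5, 113 and 93.6 RPM in PAZ-deletion libraries 1 to 3, 1701, 1470.4 and 1627 RPM in RNase-dead libraries 1 to 3, and 1676, 890.2 and 1305 RPM in wild-type libraries 1 to 3. Every PAZ-deletion library thus lay far below the other 6, while RNase-dead and wild type overlapped. The mean of 105 ± 10.3 RPM in PAZ-deletion was 6.59% of the 1599.7 ± 118 RPM in RNase-dead and 8.17% of the 1290.4 ± 393 RPM in wild type (SD, n = 3 each). The 86 kept entries, chosen by the other side of the same threshold, summed to 438 ± 97.0 RPM in PAZ-deletion, against 727 ± 56.0 RPM in RNase-dead and 598 ± 146 RPM in wild type (SD, n = 3).

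**Figure D1:**
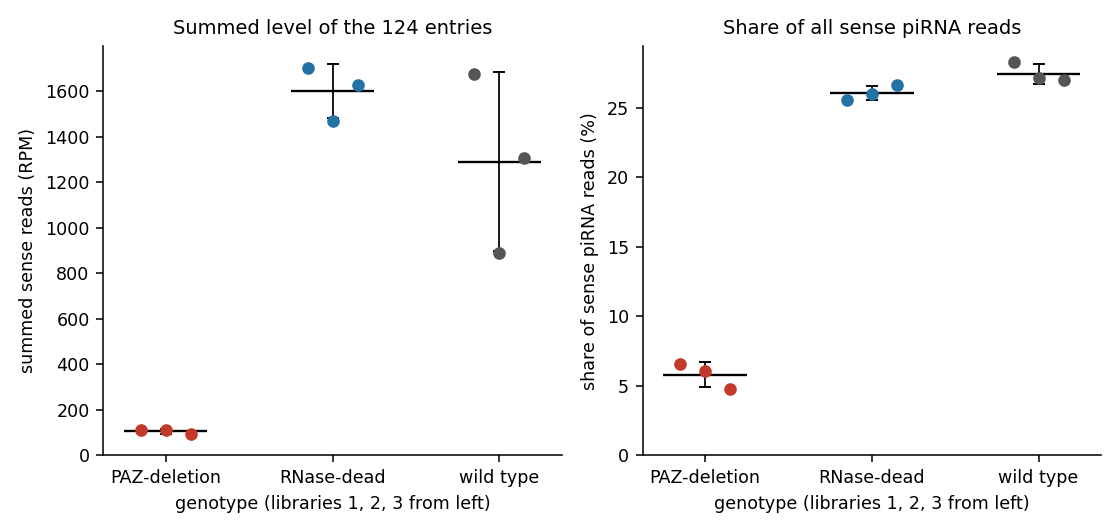
Summed sense level of the 124 entries in reads per 1000000 genome-mapped reads (left, linear axis) and their share of all sense piRNA reads in percent (right). Points are libraries, horizontal lines are means and bars are the SD over 3 libraries; PAZ-deletion libraries lie at 93.6 to 113 RPM, below all others, and wild-type library 2 is low in level but not in share.

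As a share of all sense piRNA reads the members spread less between the wild-type libraries than in level. They made up 6.53%, 6.10% and 4.78% in PAZ-deletion libraries 1 to 3, against 25.5%, 26.0% and 26.6% in RNase-dead and 28.3%, 27.1% and 27.0% in wild type. The exact binomial 95% interval, which covers counting error alone, was 4.07 to 5.56% in PAZ-deletion library 3, 24.9 to 26.1% in RNase-dead library 1 and 25.9 to 28.3% in wild-type library 2. The fall was therefore larger than that of piRNAs as a whole, which the choice of members fixes: the sense reads outside the 124 entries summed to 1724 ± 150 RPM in PAZ-deletion, against 4544 ± 393 RPM in RNase-dead and 3395 ± 938 RPM in wild type (SD, n = 3). The low wild-type library 2 was low for members and non-members alike. Its summed rate was 59.7% of the mean of the other wild-type libraries for the members, 67.1% for the kept entries and 61.0% for all entries.

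Single members ranged widely in level. In PAZ-deletion the pooled rate spanned 0 to 8.29 RPM with a median of 0.414, which is 2 reads over the 3 libraries. It spanned 1.85 to 141 RPM with a median of 6.08 in RNase-dead, and 2.03 to 83.8 RPM with a median of 5.79 in wild type. In PAZ-deletion libraries 1 to 3, 52, 72 and 61 members had a read, and most of those that did had few. All 124 members had a read in every RNase-dead library, and 121 to 124 had one in each wild-type library. Only 28 members had a read in all 3 PAZ-deletion libraries, and 29 had none in any. The highest count of any member was 7 reads in PAZ-deletion library 1, 22 in library 2 and 12 in library 3.

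**Figure D2:**
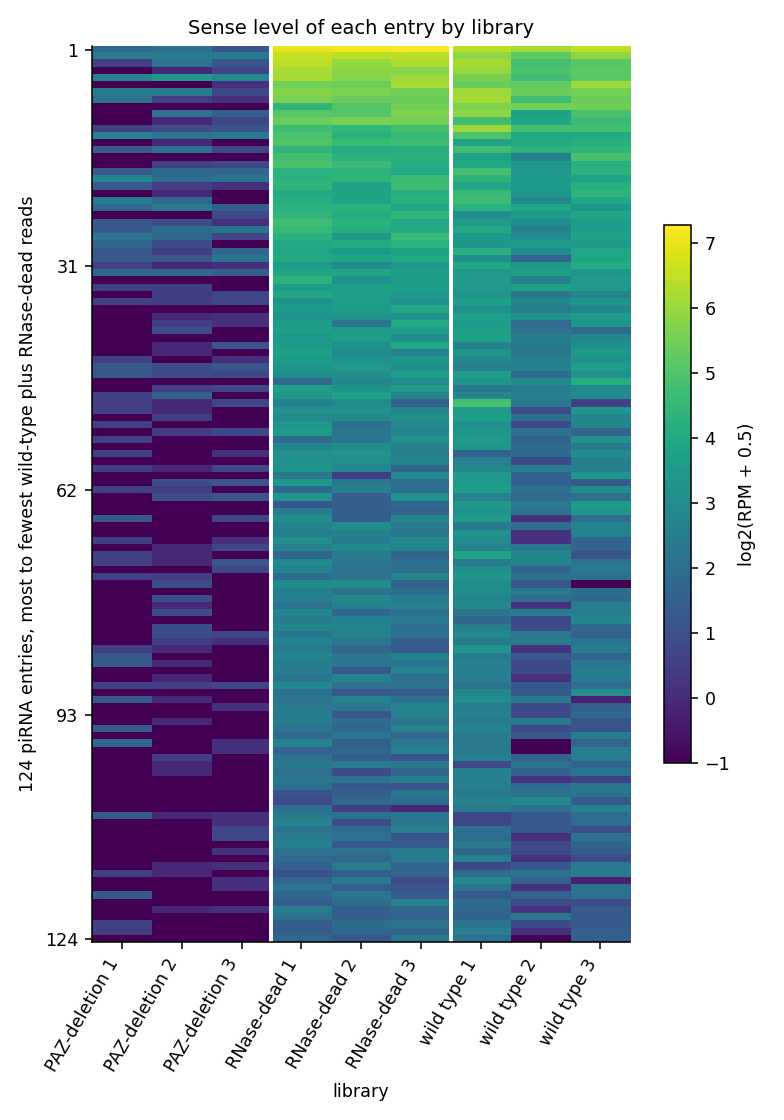
Sense level of each of the 124 entries, as log2(RPM + 0.5), in 9 libraries; rows run from the entry with the most to that with the fewest wild-type plus RNase-dead reads. The PAZ-deletion columns are dark throughout, with reads in 52 to 72 entries per library, while all 124 entries have a read in each RNase-dead library, and wild-type library 2 is the darkest of its group in 88 rows.

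The most abundant member was cel-piR-7578. It had 2.93, 3.78 and 1.78 RPM in PAZ-deletion libraries 1 to 3, against 131, 141 and 154 RPM in RNase-dead and 85.4, 71.7 and 89.0 RPM in wild type. The 3 genotypes did not overlap for this entry, with RNase-dead highest. By pooled rate it was 39.2-fold lower in PAZ-deletion than in the other libraries (counting interval 23.3 to 71.8). Next came cel-piR-6252, with 4.89, 5.199 and 4.74 RPM in PAZ-deletion, 92.6, 88.04 and 86.5 RPM in RNase-dead and 57.7, 37.8 and 58.9 RPM in wild type. Here too the genotypes stood apart, and the PAZ-deletion libraries were close to each other, at 4.94 ± 0.235 RPM (SD, n = 3).

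For cel-piR-8214 and cel-piR-987 the RNase-dead and wild-type libraries overlapped. The first had 0.978, 3.78 and 1.78 RPM in PAZ-deletion libraries 1 to 3, 86.8, 61.7 and 75.7 RPM in RNase-dead and 71.8, 28.2 and 34.2 RPM in wild type. The second had 0, 0.473 and 1.18 RPM in PAZ-deletion, 74.95, 55.1 and 54.2 RPM in RNase-dead and 63.9, 30.1 and 36.3 RPM in wild type. In both, wild-type library 1 was about as high as the RNase-dead libraries and the other wild-type libraries were lower. The PAZ-deletion loss of cel-piR-987 rests on 3 reads there, so that the ratio of 87.2 has a wide counting interval, 29.7 to 424.

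The 12 most abundant members held 43.5% of the members' wild-type and RNase-dead reads, and they differed in how much was left. The least reduced of the 12 was cel-piR-9316, with 5.87, 10.4 and 7.11 RPM in PAZ-deletion, 73.4, 54.6 and 64.95 RPM in RNase-dead and 47.0, 26.3 and 35.6 RPM in wild type. The 3 genotypes stood apart here too. Its 40 PAZ-deletion reads, the most of any member, put it at 15.9% of the pooled rate of the other libraries. At the other end, cel-piR-3162 had no PAZ-deletion read. It had 20.5, 32.02 and 45.2 RPM in RNase-dead and 51.1, 42.9 and 45.2 RPM in wild type, and was at least 62.2-fold lower in PAZ-deletion with a floor of 3 reads over the group. For cel-piR-238 a single read was found in PAZ-deletion. It had 0, 0 and 0.592 RPM there, 45.2, 41.9 and 74.0 RPM in RNase-dead and 40.01, 38.4 and 66.4 RPM in wild type. Library 3 was the highest of its genotype for this entry in each case.

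The members of the 12 not yet given were cel-piR-8248 at 6.99%, cel-piR-733 at 6.67%, cel-piR-13104 at 4.47%, cel-piR-6649 at 3.12% and cel-piR-2195 at 1.81% of the other libraries' pooled rate. For cel-piR-733 PAZ-deletion had 0, 3.78 and 2.37 RPM, against 34.6, 33.0 and 49.9 RPM in RNase-dead and 57.7, 13.4 and 29.1 RPM in wild type, the largest wild-type coefficient of variation of the 12, at 67.2%. For cel-piR-13104 PAZ-deletion had 0.978, 1.42 and 1.78 RPM, against 25.6, 21.7 and 28.4 RPM in RNase-dead and 64.3, 28.2 and 26.7 RPM in wild type, where library 1 stood above the others. In each of the 12, every PAZ-deletion library was below every other library.

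**Figure D3:**
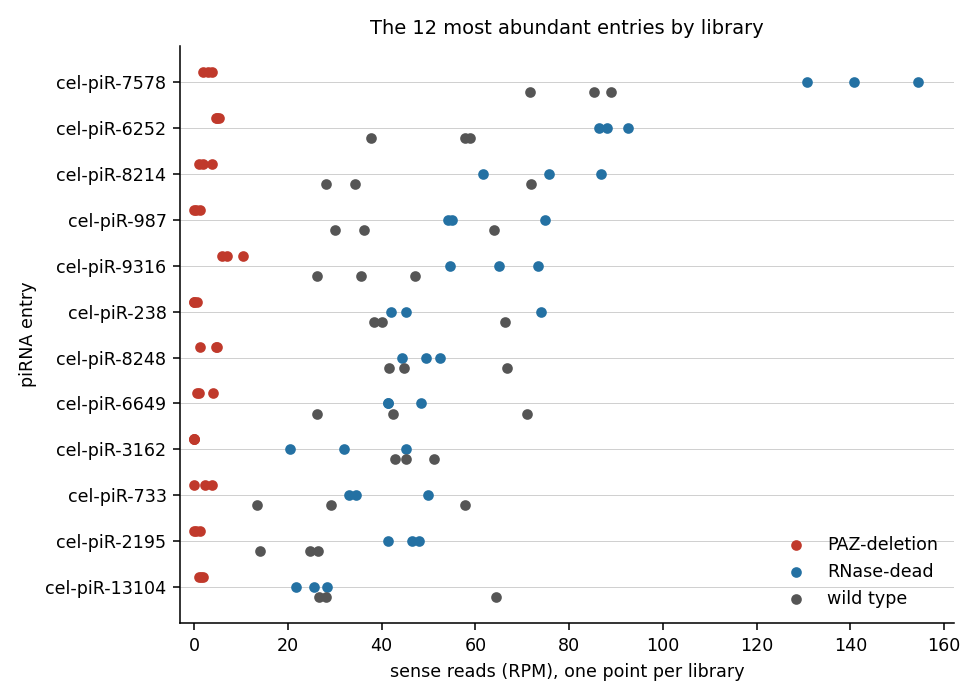
Sense level in RPM (linear axis) of the 12 most abundant of the 124 entries, 1 point per library, with PAZ-deletion above RNase-dead above wild type within each row. All PAZ-deletion points lie at or below 10.4 RPM and left of every other point of their row; cel-piR-7578, cel-piR-6252, cel-piR-9316 and cel-piR-2195 have RNase-dead points right of all wild-type points.

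The 29 members without a PAZ-deletion read occurred at all levels, but more often among the scarcer members. In 4 classes of 31 members, from the most to the least wild-type and RNase-dead reads, they numbered 2, 7, 9 and 11. After cel-piR-3162, the best measured 7 had 90 to 292 reads in RNase-dead and wild type. The bound on the fall was at least 32.4-fold for cel-piR-15599, 19.2-fold for cel-piR-9721, 15.7-fold for cel-piR-1159, 13.8-fold for cel-piR-216 and 10.2-fold for cel-piR-14362, with cel-piR-4757 between cel-piR-1159 and cel-piR-216 and cel-piR-13046 just below cel-piR-14362, relative to the other libraries pooled. Over the 29 entries the bound ranged from at least 4.44-fold to at least 62.2-fold, with a median of 7.44. By this floor 9 of the 29 were at least 10-fold lower, so the depth limits what can be said of most of them. The lower end of the exact two-sided 95% interval, used for entries with a read, is smaller than the floor gives, at 50.4-fold for cel-piR-3162.

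**Figure D4:**
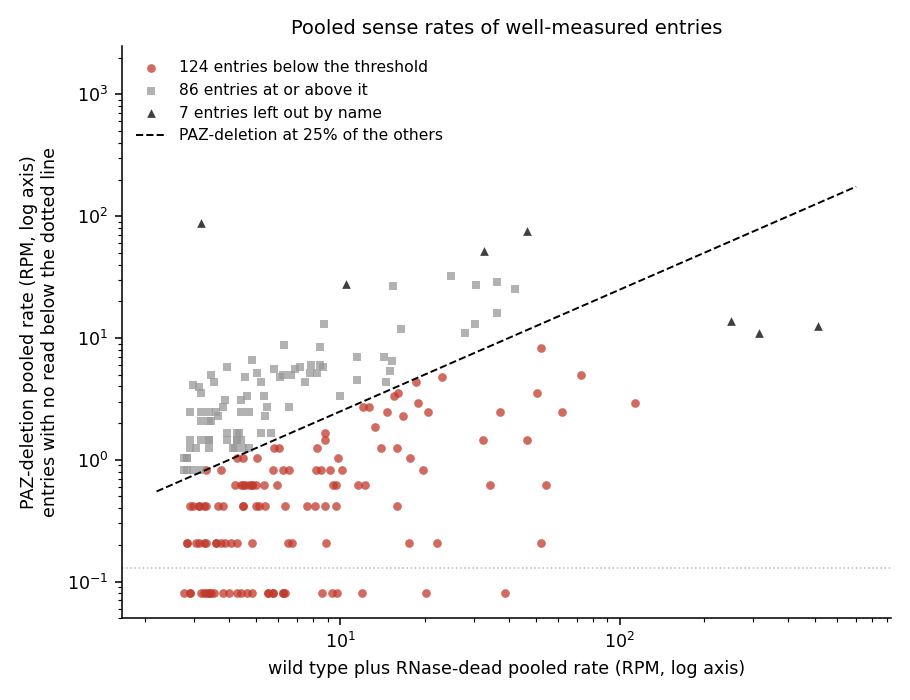
Pooled rate in PAZ-deletion against the pooled rate in wild type plus RNase-dead, both in RPM on log axes, for the 217 entries that met the read minimum and the RNase-dead limit. Circles are the 124 members, squares the 86 kept entries, triangles the 7 entries left out by name, the dashed line is the threshold of 25%, and the 29 members with no PAZ-deletion read are drawn below the dotted line; members near the line at low rates differ from kept entries by a few reads.

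The threshold cut through a continuous range. With a read, 18 members had under 5% of the other libraries' pooled rate, 32 had 5 to 10%, 26 had 10 to 15%, 6 had 15 to 20% and 13 had 20 to 25%. The members just inside were cel-piR-6799 at 24.9996%, cel-piR-818 at 24.2%, cel-piR-7398 at 23.4% and cel-piR-11711 at 23.1%, of which cel-piR-7398 had 21 PAZ-deletion reads and the others 4 or 5. The entries just outside were cel-piR-7035 at 26.1%, cel-piR-10540 at 26.5%, cel-piR-10085 at 27.7% and cel-piR-10761 at 27.9%, with 4 to 6 PAZ-deletion reads each. For 60 of the 124 members the upper end of the exact 95% counting interval of the ratio was below the threshold, and for the other 64 it was not. Membership of a scarce entry near the line is thus within counting error.

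The share left was similar over the range of levels, as a description of ratios that the choice caps at the threshold. When the members were ranked by wild-type and RNase-dead reads into 4 classes of 31, the pooled PAZ-deletion rate was 6.74% of the other libraries' in the most abundant class, with an exact binomial counting interval of 6.01 to 7.53%. It was 7.49% (6.03 to 9.19%) in the second class, 8.98% (6.90 to 11.5%) in the third and 6.90% (4.76 to 9.68%) in the least abundant. These intervals overlap. Across the 124 members, Spearman's rho between the pooled rate of the other libraries and the PAZ-deletion ratio was 0.04, a description of entries that share libraries and, in the ratio, the same reads.

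In the fit of single piRNAs by edgeR's quasi-likelihood test, all 124 members were among the 1067 entries that passed the filter on low counts. The filter asked for 10 reads over all libraries and a read in 3 of them, which every member met. Against wild type, 116 members were called lower in PAZ-deletion at an edgeR FDR under 0.05 and 0 higher, where 19.2% of all tested entries were called lower and 1.31% higher. Against RNase-dead it was 123 members lower and 0 higher, where 27.7% of all tested entries were called lower and 1.03% higher. Both contrasts chose the members, so the counts are descriptive. The median log2 fold change was -3.57 against wild type and -3.92 against RNase-dead over the members, -0.72 and -0.80 over the kept entries, and -1.25 and -1.69 over all entries tested. The 8 members not called against wild type had 14 to 30 wild-type reads. The member not called against RNase-dead was cel-piR-530, named after its values were seen, with 2 PAZ-deletion, 17 RNase-dead and 28 wild-type reads.

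These counts depend on what the counts are scaled to. With library sizes taken from sense piRNA reads, which removes a change shared by all piRNAs, 59 members were called lower against wild type, where 7.03% of all tested entries were, and 52 against RNase-dead, where 7.50% were. Under that scaling the median log2 fold change against wild type was -2.29 over the members and -0.02 over all tested entries. The distance between members and all tested entries was -2.31 with genome-mapped reads and -2.27 with piRNA reads. A change of library size shifts all entries by nearly the same amount, so this distance could hardly move.

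For 106 of the 124 members every PAZ-deletion library lay below every RNase-dead and wild-type library, as it did for 22.2% of all tested entries. Against wild type alone it was 106 members, where 27.2% of tested entries did so, and against RNase-dead alone 123, where 43.2% did so. Without wild-type library 2, the shallow and low library of its group, the number of members was 117. Leaving out a library can only keep or raise this number, and the share of all tested entries was not computed for it.

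To read the loss in libraries that took no part in the choice, the same rule was applied to the libraries of 2 replicate numbers and the summed level was taken in the libraries of the third number, with the 7 named entries still left out. Without replicate 1 in the choice, 63 entries were chosen, 59 of them among the 124. They had 81.2 RPM in PAZ-deletion library 1, 1261 RPM in RNase-dead library 1 and 1190.0 RPM in wild-type library 1. Without replicate 2 in the choice, 122 entries were chosen, 101 of them members, with 138 RPM in PAZ-deletion library 2, 1584 RPM in RNase-dead library 2 and 879 RPM in wild-type library 2. Without replicate 3 in the choice, 91 entries were chosen, 80 of them members, with 108 RPM in PAZ-deletion library 3, 1488 RPM in RNase-dead library 3 and 1108 RPM in wild-type library 3.

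The PAZ-deletion libraries left out of the choice thus held 6.82%, 15.7% and 9.78% of the wild-type library of the same number and 6.44%, 8.71% and 7.29% of the RNase-dead library. For all sense piRNA reads the same libraries stood at 28.3%, 56.4% and 40.5% of wild type and 25.2%, 32.8% and 32.0% of RNase-dead. The log2 difference over the 3 left-out sets had a mean of -3.30 against wild type (-3.87 to -2.67) and -3.75 against RNase-dead (-3.96 to -3.52). These sets share entries, and each library helped to choose the entries of the other sets, so they are not independent replicates. The set left with the most in PAZ-deletion relative to wild type was the one read in wild-type library 2, the low library of its group. In the left-out libraries PAZ-deletion was the lowest of the 3 genotypes for 62 of 63, 112 of 122 and 88 of 91 chosen entries. Over all tested entries PAZ-deletion was the lowest for 69.4% in the libraries of number 1, 40.9% in those of number 2 and 58.2% in those of number 3. Those include scarcer entries, where a tie without reads counts against it. Of the 86 kept entries, which met the read minimum but were chosen on all libraries, it was the lowest for 65, 43 and 47.

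In RNase-dead the summed level of the members overlapped that of wild type. The rule had removed entries at 2-fold or more above wild type, so rises are cut short by the choice while falls are not. The summed level was 1599.7 ± 118 RPM in RNase-dead and 1290.4 ± 393 RPM in wild type, 124% of wild type, where all sense piRNA reads stood at 131%. RNase-dead libraries held a slightly smaller share of sense piRNA reads in the members than wild-type libraries, 26.1 ± 0.538% against 27.4 ± 0.712% (SD, n = 3 each). The 3 RNase-dead shares lay below the 3 wild-type shares, a description only, since the limit on the ratio takes entries that rose out of the members. By pooled rate 83 members were higher in RNase-dead, and the ratio ranged from 0.253 to 1.96 with a median of 1.17. For 81 members the exact counting interval of the ratio held 1, for 29 it lay above 1 and for 14 below. Over all tested entries, which include scarcer ones with wider intervals, it lay above 1 for 17.2% and below for 4.59%.

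edgeR called 0 of the 124 members in RNase-dead against wild type, where 2.16% of all tested entries were called in either direction, 2.06% higher and 0.0937% lower. Without adjustment, at p under 0.05, 7 members were higher and 5 lower, where 10.4% of all tested entries were higher and 1.87% lower. DESeq2 called 2 members higher and 0 lower with genome-mapped size factors and 0 with median-ratio factors. The 2 were cel-piR-7578 and cel-piR-2195. The share of all tested entries called by DESeq2 was not computed, so its counts cannot be set against it. The median log2 fold change was 0.25 over the members and 0.32 over all tested entries. Every RNase-dead library lay above every wild-type library for 18 members, 14.5% of them, where 16.0% of all tested entries did so. The opposite order held for 5 members, 4.03% of them, where 2.62% of all tested entries did so.

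**Figure D5:**
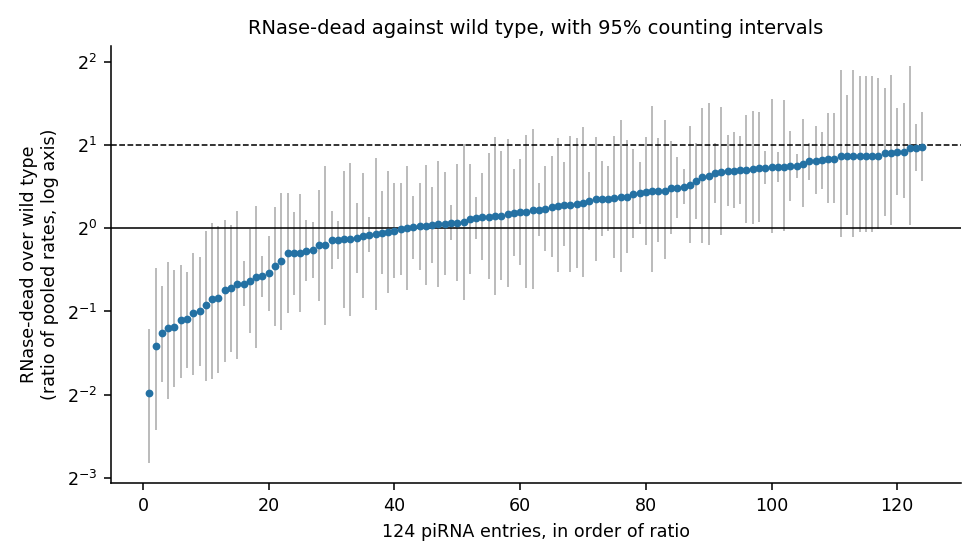
Ratio of the pooled rate in RNase-dead over that in wild type for the 124 entries in order of ratio, on a log axis, with exact 95% counting intervals as grey bars. The solid line marks equal rates and the dashed line the limit of 2 set by the choice; 83 entries lie above equal rates, and the lowest, cel-piR-1694, is at 0.253.

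At the upper end of that order, cel-piR-8714 had 26.3, 19.3 and 14.6 RPM in RNase-dead and 11.1, 7.69 and 11.6 RPM in wild type. Its ratio of pooled rates was 1.96. Nearly the same ratio, 1.96, was seen for cel-piR-2195, with 41.3, 48.0 and 46.5 RPM in RNase-dead and 26.4, 14.1 and 24.6 RPM in wild type. For cel-piR-12814 the ratio was 1.95 from 32 RNase-dead and 15 wild-type reads. In all 3 entries every RNase-dead library lay above every wild-type library, and cel-piR-12814 rested on the fewest reads.

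At the lower end, cel-piR-1694 had 1.92, 2.35 and 3.01 RPM in RNase-dead and 10.7, 4.48 and 10.95 RPM in wild type, a ratio of 0.253 (counting interval 0.141 to 0.431). Its edgeR log2 fold change was -1.87 ± 0.59 (SE) with an FDR of 0.0666. It was called lower when sizes came from piRNA reads, under TMM and without wild-type library 2. Next in order were cel-piR-4854, with 14 RNase-dead and 34 wild-type reads (ratio 0.376), and cel-piR-216, with 39 and 85 reads (ratio 0.419). All 3 had no PAZ-deletion read, and in each every RNase-dead library lay below every wild-type library. The edgeR log2 fold changes of cel-piR-4854 and cel-piR-216 were -1.42 and -1.11, with FDRs of 0.356 and 0.336. With sizes from piRNA reads cel-piR-216 was called lower too, at -1.50 with an edgeR FDR of 0.0408.

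The level of the members followed a similar order in RNase-dead and wild type, with a Spearman's rho of 0.80 between the pooled rates over 124 entries, a range that the limit on their ratio narrows. By class of level, the ratio of RNase-dead over wild type was 1.28 in the most abundant class, 1.12 in the second, 1.00 in the third and 1.07 in the least abundant.

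Replicates of wild type scattered more than those of RNase-dead. The coefficient of variation over 3 libraries had a median of 26.3% in RNase-dead and 48.8% in wild type. Wild-type library 2 was the lowest of its group for 88 of the 124 members, and for 21 of the 23 with at least 100 wild-type reads. A few entries varied in another way. The largest coefficient, 131%, belonged to cel-piR-8559 in wild type. It had 0.978, 0.473 and 1.18 RPM in PAZ-deletion, 5.77, 7.53 and 2.58 RPM in RNase-dead and 28.0, 4.48 and 1.03 RPM in wild type. PAZ-deletion library 3 was here above wild-type library 3. A similar spread was seen for cel-piR-6759, with 0.978, 0.473 and 0 RPM in PAZ-deletion, 2.88, 5.18 and 2.58 RPM in RNase-dead and 13.6, 6.404 and 1.71 RPM in wild type. For cel-piR-2831 the values were 0, 1.42 and 0 RPM in PAZ-deletion, 12.5, 10.8 and 12.04 RPM in RNase-dead and 12.8, 3.84 and 3.08 RPM in wild type, so that wild-type library 1 alone was near RNase-dead.

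The members whose pattern over the 9 libraries was most like that of cel-piR-7578 were cel-piR-8991, cel-piR-1159 and cel-piR-6252, by Pearson's r of log2(RPM + 0.5) of 0.995, 0.993 and 0.993. The contrast of PAZ-deletion with the rest, on which all were chosen, dominates this likeness.

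Antisense reads played no part in the choice. The members had 6 in PAZ-deletion, 31 in RNase-dead and 8 in wild type. An antisense read was found for 16 of the 124 members, 12.9% of them, where 12.7% of all tested entries had one. In PAZ-deletion libraries 1 to 3 antisense reads were 0.885%, 0.417% and 2.47% of the members' reads of both strands, against 1.17%, 2.02% and 1.12% for the kept entries. In the RNase-dead and wild-type libraries they were 0.0738 to 0.263% for the members and 0.552 to 0.951% for the kept entries. These shares have the sense reads that chose both sets in their denominator and are given without a test. Of the 81 antisense reads of the kept entries in the 6 RNase-dead and wild-type libraries, 47 belonged to 1 entry, cel-piR-8767, singled out for that count, and without it the kept entries had 0.225 to 0.513%. Over all piRNA entries 16.1 to 19.2% of reads were antisense in PAZ-deletion, 7.17 to 8.34% in RNase-dead and 8.55 to 11.001% in wild type.

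The summed antisense rate of the members was 0.978, 0.473 and 2.37 RPM in PAZ-deletion libraries 1 to 3, 4.48, 3.77 and 3.87 RPM in RNase-dead and 1.24, 1.28 and 1.03 RPM in wild type. PAZ-deletion and wild type overlapped, and the mean log2(RPM + 0.5) differed by -0.07 ± 0.46 (SE, exact permutation p = 0.9, n = 3 each). At 6 against 8 reads the ratio of pooled rates was 1.07 (counting interval 0.307 to 3.53), which does not reach the 8.17% of wild type at which the summed sense level stood. The choice of members made that sense level low, so no conclusion on the strands is drawn from this difference. Of the 6 reads, 3 belonged to 1 entry, cel-piR-5781, singled out for that count, with no antisense read in the other genotypes. The interval treats reads as independent and may thus be too narrow. RNase-dead libraries were all above the wild-type libraries, by 1.43 ± 0.10 (SE), and PAZ-deletion libraries all below the RNase-dead libraries, by -1.50 ± 0.46 (SE). Both of these comparisons had an exact two-sided permutation p of 0.1, the lower limit for groups of 3. Each order was also seen in another set of entries, but not in both the kept entries and all piRNA entries. For the kept entries every RNase-dead library lay above every wild-type library, at 144% by means (6.47 and 4.48 RPM), against 342% for the members. Over all piRNA entries these genotypes overlapped, with means of 517 and 509 RPM. PAZ-deletion libraries all lay below the RNase-dead libraries over all piRNA entries, at 74.4% by means (384 and 517 RPM), against 31.5% for the members. For the kept entries PAZ-deletion and RNase-dead overlapped, with means of 6.43 and 6.47 RPM.

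The RNase-dead excess of the members lay mainly on a pair of entries. The antisense reads of cel-piR-4854 numbered 5, 1 and 4 in RNase-dead libraries 1 to 3 and those of cel-piR-9070 numbered 1, 4 and 4. In PAZ-deletion neither had an antisense read, and in wild type cel-piR-4854 had none and cel-piR-9070 had 1, in library 3. Without these 2 entries, a choice made after seeing the data, 12 antisense reads in RNase-dead stood against 7 in wild type and the log2 difference was 0.19 (exact permutation p = 0.8, n = 3 each). Between PAZ-deletion and RNase-dead the log2 difference was then -0.13. On the sense strand cel-piR-9070 had 0 reads in PAZ-deletion, 23 in RNase-dead and 19 in wild type. The third entry by antisense reads, cel-piR-871, had 4 over all libraries, of which 1 was in PAZ-deletion, 1 in RNase-dead and 2 in wild type.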

How the data were processed

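The deposited values were raw read counts, sense and antisense, for 15913 piRNAdb entries (release 1.7.6, per the file headers), and raw counts of genome-mapped reads, in 9 libraries. Per the labels' protocols, small RNA was treated with acid pyrophosphatase, so 5′ triphosphate RNAs are part of the genome-mapped reads; the growth text calls the animals hermaphrodite and male, and the titles' hermaphrodite was used. FastQC 0.12.0 and cutadapt 3.7 were used, per the submitters' processing notes; which aligner and genome build were used, and how reads with several matches were treated, is not given in the sources used here. Entries of near-identical sequence may share reads; no 2 members had identical counts.

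Rates were scaled to genome-mapped reads, as the study design does. Single entries were tested with edgeR 4.0.16 (glmQLFit and glmQLFTest, all 9 libraries, library sizes set to genome-mapped reads, Benjamini-Hochberg FDR over 1067 entries, SE from the F statistic) in R 4.3.3, with DESeq2 1.42.0 as an alternative. The fit was also run on simulated counts without a change shared by most entries, so that run does not bear on the scaling. The spread in the edgeR fit is pooled over entries. Permutation tests were exact and two-sided. Intervals are exact binomial (Clopper-Pearson, 95%) and, like the floor of 3 reads, cover counting error only. Since the labels name no separate cultures, p-values measure the spread between libraries, which may be technical. The members, tests and naming rule were chosen with earlier results of these data known. Members were named for the most wild-type and RNase-dead reads (12), no PAZ-deletion read (8), ratios nearest the threshold (4 on each side), extreme RNase-dead ratios (3 each way), most antisense reads (3), the largest wild-type variation with at least 40 wild-type reads (3) and likeness to the most abundant member (3).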

Additional observations from a re-analysis of the deposited data

How the results depend on the processing

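Of 117 recomputed values of the main results, 93 were labelled the same, 21 moved and 3 reversed. A count was the same within 1.5 times, and a summed sense rate within the replicate SD. An antisense difference was the same if it kept its sign, whatever its size or p. The antisense differences without cel-piR-4854 and cel-piR-9070 are among them, though they shrank to -0.13 for PAZ-deletion against RNase-dead and 0.19 for RNase-dead against wild type. The 116 members called lower in PAZ-deletion against wild type became 59 with library sizes from piRNA counts, 64 with DESeq2 median-ratio factors, 67 of 68 with a minimum of 80 reads and 89 to 119 with 1 library left out. The 123 called against RNase-dead became 52, 62, 68 of 68 and 99 to 120. Of all tested entries 19.2% and 27.7% were called lower in the main fit, and 7.03% and 7.50% with sizes from piRNA counts. No such share was computed for the other fits, nor for RNase-dead against wild type outside the main fit. Their counts do not separate a change in the members from a change in all entries. The 0 called in RNase-dead against wild type became 3 when sizes came from piRNA counts, 1 under TMM, 2 with DESeq2 on genome-mapped sizes, and 0 to 4 with 1 library left out, the 4 without wild-type library 1. The log2 ratio of summed rates, PAZ-deletion over wild type, was -3.61 and became -2.24 per sense piRNA read, -4.47 with a stricter PAZ-deletion threshold, and -3.87 to -2.67 with a replicate left out. Over RNase-dead it was -3.92 and became -2.17, -4.75, -3.75 without the 5 most abundant members, and -3.98 to -3.52. RNase-dead over wild type was 0.31, became -0.075 per sense piRNA read, and ranged over 0.084 to 0.85. The antisense difference of PAZ-deletion and wild type, -0.07, changed sign to 0.20 per antisense read, to 0.057 without cel-piR-4854 and cel-piR-9070, and ranged over -0.48 to 0.30 with a library left out, the 0.30 without PAZ-deletion library 2. Beyond what the scaling or the smaller choice of entries itself changes, the cause was not tested. The labels do not say that replicate numbers pair the libraries. Correlations of same-numbered libraries were -0.07 to 0.11. None are given for differently numbered libraries, so these values cannot settle it. A replicate block made the 3 counts 105, 122 and 0. None of the 33 named members reversed against wild type under any alternative run, and 5 lost their call with library sizes from piRNA counts. All had been chosen for a low PAZ-deletion rate in the same libraries, so a reversal was hardly possible. Depth limits the members with few reads: 83 of 124 had at most 3 PAZ-deletion reads, and for 64 the counting interval reached the threshold.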
